A study of Mus musculus with 6 samples.

Results

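Pax5 is the transcription factor that commits lymphoid progenitors to the B lineage, and it both activates B cell genes and holds down genes of other lineages. Most accounts of its activity centre on promoters and enhancers, which carry H3K4me3 (a mark of active promoters) or H3K27ac (a mark of active promoters and enhancers). Pax5 also contacts the immunoglobulin loci, whose variable (V) gene segments are joined to D and J segments by the RAG recombinase in developing B cells.

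The regions described here are Pax5 ChIP-seq peaks that overlapped no H3K27ac peak and no H3K4me3 bin by as much as 1 bp. They were selected on the measured peak lists themselves, so the absence of both marks is their definition and not a finding. Of 15445 Pax5 peaks on the mm9 build, 2427 met this rule, or 15.7% (Wilson 95% interval 15.1 to 16.3, counting error only). The remaining Pax5 peaks comprised 3599 with H3K27ac but no H3K4me3 and 9419 with H3K4me3, and these serve as the comparison groups.

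Chromatin was prepared from pre-B cells taken from the bone marrow of mice on a C57BL/6 background, aged 6 to 14 weeks and of both sexes. The mice lacked RAG and carried a rearranged IgM heavy chain transgene (RAG-/- µ+), which lets B cell development proceed to the pre-B stage while the endogenous V genes, including those of the kappa light chain, cannot be rearranged. All groups share this genotype and there was no treated or control genotype. Each of the 3 lists (Pax5, H3K27ac and H3K4me3) came from 1 library, with no replicate, so no difference given below was tested against the spread between cell preparations. Intervals are binomial, cover counting error only, and treat peaks as independent, which copies of a repeat are not.

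The labelled cell type was checked against marker genes. A Pax5 peak lay within 1000 bp of a start of the pre-B marker genes Cd79a, Cd79b, Vpreb1, Igll1, Pax5 and Ebf1. An H3K27ac peak did so at the same genes, and H3K4me3 at each of these except Igll1. None of the 3 lists had a peak at Alb, Myod1, Neurod1 or Gata1, markers of liver, muscle, neurons and erythroid cells.

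Several kinds of sequence recurred in the unmarked peaks and are shown first, since the results below refer to them. One kind held the letters GCGTGAC or GCATGAC, the core of the Pax5 recognition sequence. Below, 120 bp around that core (capitals) are given for the strongest peaks that carried it near their midpoint, at chr10:116183875-116183994 and chr4:33956480-33956599, and for the strongest such peak of the kappa locus, at chr6:68548215-68548334. All are mm9, plus strand, 5′ to 3′.
Chromosome 10 peak: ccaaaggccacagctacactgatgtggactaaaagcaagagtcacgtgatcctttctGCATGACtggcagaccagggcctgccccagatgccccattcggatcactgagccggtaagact
Chromosome 4 peak: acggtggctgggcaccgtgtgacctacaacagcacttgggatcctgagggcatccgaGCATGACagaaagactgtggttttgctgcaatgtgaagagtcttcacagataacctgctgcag
Kappa locus peak: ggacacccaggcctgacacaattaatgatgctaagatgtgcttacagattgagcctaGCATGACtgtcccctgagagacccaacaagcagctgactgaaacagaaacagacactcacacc

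A second kind held the central letters of the recognition sequence of CTCF, the zinc finger protein that anchors chromatin loops. The 2 strongest unmarked peaks with these letters (capitals) are shown over 120 bp, at chr3:15194510-15194629 on the minus strand and chr12:91968166-91968285 on the plus strand of mm9.
Chromosome 3 peak: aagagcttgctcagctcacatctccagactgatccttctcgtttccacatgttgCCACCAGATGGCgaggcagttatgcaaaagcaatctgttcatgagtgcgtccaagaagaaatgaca
Chromosome 12 peak: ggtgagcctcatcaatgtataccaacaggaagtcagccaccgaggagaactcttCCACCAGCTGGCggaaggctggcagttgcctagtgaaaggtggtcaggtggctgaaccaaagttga

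Another kind was a repeated sequence. The central 400 bp of 351 unmarked peaks aligned with that of a single seed peak, and 300 bp of the seed, at chr6:92069122-92069421 (mm9, minus strand), stand for them below. The capitals span the middle 50% of the Pax5 peak midpoints over all copies with a peak.
LINE-1 segment: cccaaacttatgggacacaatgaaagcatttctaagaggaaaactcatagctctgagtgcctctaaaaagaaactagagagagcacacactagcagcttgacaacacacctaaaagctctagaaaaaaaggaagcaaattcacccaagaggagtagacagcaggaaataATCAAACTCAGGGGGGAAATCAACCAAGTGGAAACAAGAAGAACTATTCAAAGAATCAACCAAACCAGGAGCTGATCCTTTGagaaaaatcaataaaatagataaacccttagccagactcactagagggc

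Unmarked peaks were narrower and scored lower than the other Pax5 peaks. Their median width was 713 bp (95% interval of the median 707 to 720), against 857 bp (851 to 866) for peaks with H3K27ac only and 1111 bp (1101 to 1119) for those with H3K4me3. The median score given by the peak caller, for which no unit is stated, was 137 (134 to 142), against 187 (182 to 193) and 248 (242 to 253). The share of Pax5 peaks that were unmarked was larger at each step down in score, from 4.27% in the highest-scoring 10% of the list (3.37 to 5.40) to 31.1% in the lowest 10% (28.8 to 33.4). A wider peak has more bases that can touch a mark, so width is not independent of the rule. Of the 100 highest-scoring Pax5 peaks 3 were unmarked, and of the top 1000 there were 40.

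**Figure D1:**
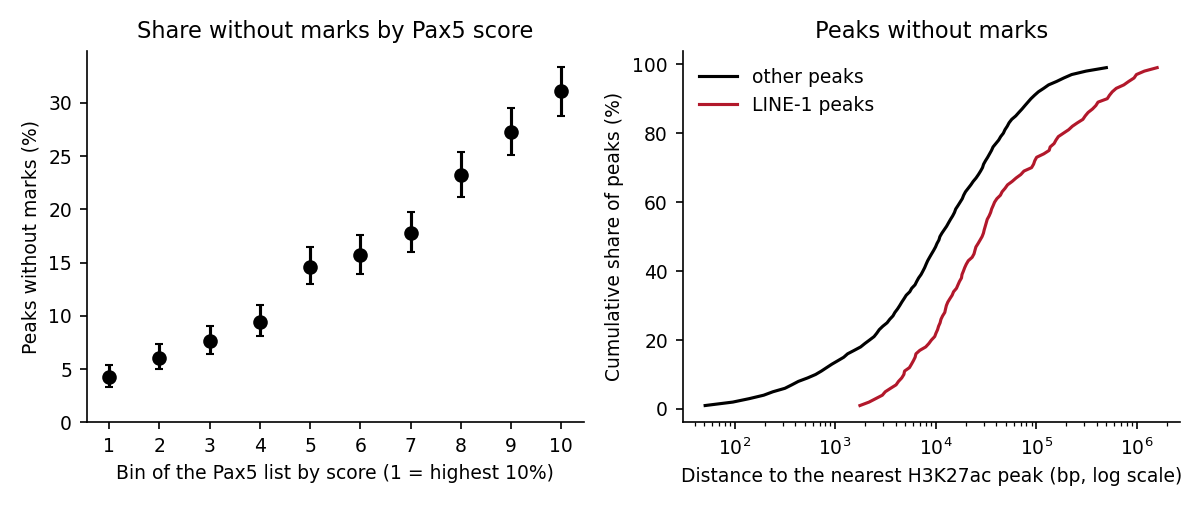
Left, the share of Pax5 peaks without marks in each of 10 equal bins of the list ordered by score, with Wilson 95% intervals. It runs from 4.27% in the highest bin to 31.1% in the lowest. Right, the cumulative share of unmarked peaks by distance to the nearest H3K27ac peak on a log axis, for 369 peaks on the LINE-1 element and 2058 off it, with medians of 28977 and 11032 bp.

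The distance from an unmarked peak to the nearest H3K27ac peak had a median of 13053 bp, with quartiles of 3980 and 41238 bp. It was over 50000 bp for 517 of them (21.3%). At the other end 283 (11.7%) had H3K27ac within 1000 bp, and 27 of these had it within 1000 bp on both sides. The median score was 157 (117 to 188) for those 27, 152 (138 to 165) for those with H3K27ac within 1000 bp on one side and 136 (133 to 139) for the 2144 with none that near. For H3K4me3, 888 unmarked peaks (36.6%) were more than 50000 bp away. At the edge of the rule, an unmarked peak on chromosome 14 (122459797 to 122460502, score 296) stopped 2 bp short of an H3K27ac peak, while a peak on chromosome 11 (58944841 to 58945499, score 109) was set aside for an overlap of 3 bp. Only 51 unmarked peaks had a mark within 100 bp, and 138 others owed their exclusion to an overlap of at most 100 bp.

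Just over 50% of the unmarked peaks were intergenic and most of the rest were intronic. By the position of the midpoint, 51.5% (49.6 to 53.5) were intergenic, 36.5% (34.7 to 38.5) intronic, 5.36% (4.53 to 6.32) exonic and 6.55% (5.63 to 7.61) within 1000 bp of the start of a protein-coding transcript. Peaks with H3K27ac only were near such a start about as seldom, 5.17% (4.49 to 5.94), were intronic in 45.5% (43.9 to 47.1) and were intergenic in 45.4% (43.8 to 47.0). Of the peaks with H3K4me3, 78.2% (77.4 to 79.0) were at a coding start. The median distance to a coding start was 19634 bp for unmarked peaks, 17489 bp for peaks with H3K27ac only and 142 bp for those with H3K4me3.

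The 159 unmarked peaks at coding starts differed in base composition from the 7366 promoter peaks with H3K4me3. In the central 300 bp their median ratio of observed to expected CpG was 0.485 (0.420 to 0.606), against 0.854 (0.849 to 0.860), and their GC content 59.3% against 66.3%. The median distance to the start was 334 bp for the unmarked peaks, 93 bp with H3K4me3 and 311 bp with H3K27ac only. The composition of the unmarked peaks was not adjusted for this distance. The Pax5 core was found in 21.4% of them (15.7 to 28.4), against 7.09% (6.52 to 7.70) of the promoter peaks with H3K4me3. The 186 promoter peaks with H3K27ac only had a CpG ratio of 0.262 (0.216 to 0.286), a GC content of 53.7% and the core in 14.0% (9.72 to 19.7), and the intervals of the core for these and the unmarked promoter peaks overlap. The highest scores among the unmarked promoter peaks, named after their values were seen, were at B3gat2, which encodes a glucuronyltransferase (score 1248, midpoint 845 bp from the start), Ntn1, the axon guidance ligand netrin-1 (score 902, 321 bp), and Kcnc1, a voltage-gated potassium channel (score 818, 565 bp). Their nearest H3K27ac peaks were 40867, 28879 and 3770 bp away.

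The 10 highest-scoring unmarked peaks were all away from coding starts, none was on a repeat family, and 9 of them are described here. The peak on chromosome 5 (111820356 to 111821165) scored 1907, was 25621 bp from the start of Mn1, a transcriptional coregulator gene, and ended 681 bp from H3K27ac. Another was in an intron of Itpr2, which encodes an inositol trisphosphate receptor (chromosome 6, 146269215 to 146270107, score 1751, 48438 bp from H3K27ac).

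The other peaks described scored between 1430 and 1661. A peak 57160 bp from Mbip (chromosome 12, 57503704 to 57504377, score 1661) came within 6 bp of H3K27ac. One near Wdr18 (chromosome 10, 79420592 to 79421325, score 1457) lay 765 bp from H3K27ac and 1377 bp from H3K4me3. At the other extreme, the peak 55089 bp from Cnr1, the cannabinoid receptor gene, had no H3K27ac within 228482 bp and no H3K4me3 within 540297 bp (chromosome 4, 33955994 to 33956963, score 1498). The peak 274514 bp from the start of Bmper, a regulator of bone morphogenetic protein signalling, was 101495 bp from H3K27ac (chromosome 9, 22752432 to 22753579, score 1457). Peaks in introns of 2610021K21Rik (score 1562) and Cdk17, a cyclin-dependent kinase gene (score 1430), and an intergenic peak whose nearest coding gene was Gm239 (score 1541), were 27539, 6329 and 5100 bp from H3K27ac. Of these 10 peaks only those near Gm239 and Cnr1, shown above as the chromosome 10 and chromosome 4 peaks, held the Pax5 core.

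The largest group by sequence matched a single repeated element. A window of 400 bp around the midpoint of its seed peak (chromosome 6, 92068915 to 92069629, score 154) had 30818 copies in the mm9 genome with at least 150 bp aligned. An 8 kb window around this peak encoded, on the minus strand, the catalytic box of a reverse transcriptase, 1097 bp downstream of the peak midpoint in that direction. The copy number and this box are those of LINE-1, the long interspersed retrotransposon of mammals, and the element is called so here. No repeat annotation was used.

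The midpoints of 369 unmarked peaks, 15.2% of the total (13.8 to 16.7), fell on this element. The element held 20 of the 3599 peaks with H3K27ac only, or 0.556% (0.360 to 0.857), and 1 of the 9419 with H3K4me3, or 0.0106% (0.00187 to 0.0601). The peaks were not spread along it. Within 400 bp of the seed midpoint lay 348 of the 369, and the other 21 lay between 1400 and 1800 bp to one side. Every other 200 bp bin of the 8 kb window held none, although 15532 to 97415 genome copies aligned over each bin from 4000 bp to the left of the seed to 2600 bp to its right. Of the 30818 copies of the central window, 40 overlapped an H3K27ac peak and 3 an H3K4me3 region.

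**Figure D2:**
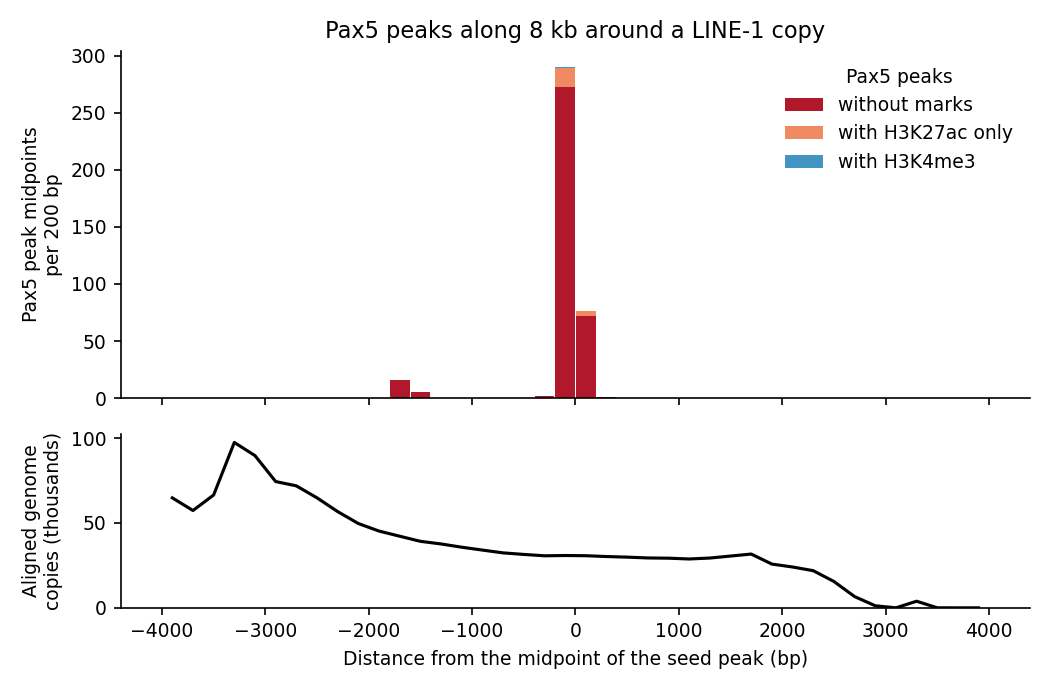
Top, the number of Pax5 peak midpoints per 200 bp along the 8 kb around the seed LINE-1 copy, stacked by class. Bottom, the mean number of genome copies aligned over each bin. The peaks gather in 1 main place around the seed midpoint and a minor one 1400 to 1800 bp to its left, while the number of aligned copies hardly differs between these bins and their neighbours.

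Very few copies carried a peak: 373 of 30818, or 1.21% (1.09 to 1.34). Over the window the midpoints of the overlapping peaks were confined, with 90% of them between positions 42 and 241 of the 400, counted along the plus strand, and a median at 140. Copies with a peak were slightly closer to the seed (median identity 92.2%, quartiles 91.2 and 93) than copies without (91.8%, quartiles 88.0 and 92.5). Among copies aligned over more than 380 bp, a peak was called on 0.110% of those under 85% identical to the seed (0.0376 to 0.324), 0.850% at 85 to 90% (0.627 to 1.15) and 1.54% at 90 to 95% (1.37 to 1.73). At 95% or more the share was 14.7%, with a wide interval (6.45 to 30.1), and that bin includes the seed itself. All 400 positions were then ranked by how much more often copies with a peak kept the seed's base. Position 275 came first, with 66.6% of copies with a peak and 42.2% of those without. Position 152 came next, with 98.1% and 80.4%. Both were picked after the values were seen. Since the seed was itself chosen among copies with a peak, these differences are descriptions of how the copies resemble it.

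The main segment of the element has few of the letters that mark Pax5 sites elsewhere. The Pax5 core was present in the central 300 bp of 18 of the 369 LINE-1 peaks (4.88%, 3.11 to 7.58), and in 2 of the 351 peaks of the main sequence family. Most of the LINE-1 peaks with the core were thus outside that family. In a second family of 22 peaks, with its seed on chromosome 10 (64393169 to 64393861), 16 held it. The highest score in this second family, 489, was also the highest among LINE-1 peaks. How many of the 22 lay on the element was not counted. The main segment carries GCTTGAC, which differs from both forms of the core by 1 letter, on the minus strand and starting at position 249 of the window. That is away from where the peaks centre, since their midpoints had a median position of 140 and quartiles of 99 and 180. The GCTTGAC variant was looked for after the sequence was seen. It was intact in 75.3% of the aligned copies with a peak and 69.0% of those without.

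LINE-1 peaks had a lower median score than the other unmarked peaks. Their median was 122 (118 to 128), against 141 (137 to 146) for the 2058 other unmarked peaks, and the highest was 489. None was among the 1000 highest-scoring Pax5 peaks. They were mostly intergenic (77.5%), 22.2% were intronic and none was within 1000 bp of a coding start. Their median distance to H3K27ac was 28977 bp (23720 to 32600), against 11032 bp (10218 to 12302). The X held 4008 of the 30818 window copies (13%) and 13 of the 369 LINE-1 peaks (3.52%), but it had few Pax5 peaks of any kind, 258 of 15445, and 27.1% of its 48 unmarked peaks were on the element. Chromosome 6 held 1728 copies (5.61%) and 35 such peaks (9.49%).

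Reads from a repeat can align to many places. As a measure from the genome alone, each position of a peak was scored by how often the 32 bp that start there occur in mm9 on either strand. In LINE-1 peaks a median of 21.8% of positions had 3 or fewer exact occurrences (quartiles 11.6 and 33.8), whereas the median was 100% for the other unmarked peaks, for peaks with H3K27ac only and for those with H3K4me3. Fewer than 50% of the positions qualified in 334 of the 369 LINE-1 peaks and in 42 of the 2058 others. The study's methods kept reads with up to 3 best alignments, but they name another version of the aligner than the submitters' processing notes, so this setting may not be the one behind the lists. Copies with a Pax5 peak were not the most unique of the element. A peak was called on 1.43% of copies (1.26 to 1.63) in which under 25% of positions had 3 or fewer occurrences. The share was highest, 1.85% (1.55 to 2.21), where 25 to 50% of positions did. It was 0.455% (0.308 to 0.670) at 50 to 75%, and 0.127% (0.0494 to 0.326) at 75% or more. The part of multiple alignment in these peaks, and in the absence of marks on them, was not tested.

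Off the element, unmarked peaks held the Pax5 core near their midpoint more often than either marked class. The letters GCGTGAC or GCATGAC, on either strand within 300 bp around the midpoint, were present in 409 of 2058, or 19.9% (18.2 to 21.7). The share was 10.8% (9.86 to 11.9) for peaks with H3K27ac only, 7.15% (6.64 to 7.68) for those with H3K4me3 and 2.65% in 8527783 windows of 300 bp that tile the genome. The same order held at low and high scores. Among peaks scoring under 120 the core was in 18.9% of unmarked peaks off LINE-1 (16.2 to 21.8), against 9.22% (7.45 to 11.4) with H3K27ac only and 4.11% (3.19 to 5.29) with H3K4me3, and among those scoring 400 or more in 25.9% (20.2 to 32.7), against 14.4% (11.9 to 17.2) and 9.31% (8.28 to 10.5). The core was centred: the 50 bp just right of the midpoint held it in 7.00% of the peaks, falling to 0.632% at 200 to 250 bp. The same 50 bp held it in 3.28% of peaks with H3K27ac only and 1.44% of those with H3K4me3. At 200 to 250 bp these marked classes held it in 0.778% and 0.998%. Marked peaks were wider, and a 300 bp window covers less of a wider peak. The shares therefore describe the centre of the peaks only.

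The letters of the CTCF site were present in 211 unmarked peaks, all off the element, which is 10.3% (9.02 to 11.6) of those. The share was 2.81% (2.32 to 3.4) for peaks with H3K27ac only, 3.11% (2.78 to 3.48) for those with H3K4me3 and 1.57% for genome windows. These letters were also centred in unmarked peaks, at 2.58% in the 50 bp right of the midpoint and 0.583% at 200 to 250 bp, whereas the 2 values were 0.417% and 0.583% with H3K27ac only and 0.584% and 0.435% with H3K4me3. The 211 peaks had a median score of 151 (134 to 165), and 58.3% were intergenic. Only 20 of them also held the Pax5 core.

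**Figure D3:**
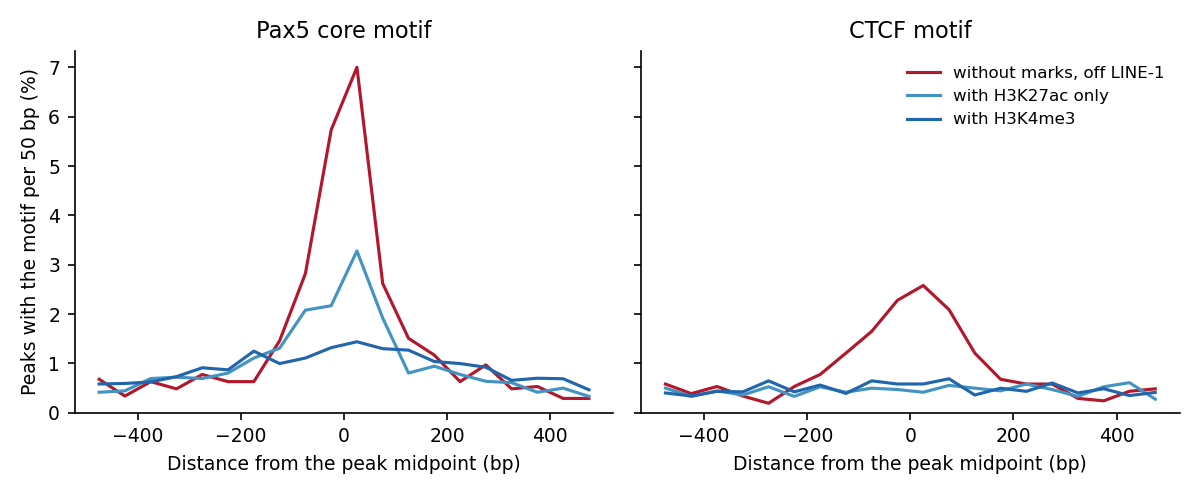
The share of peaks with the Pax5 core (left) or the CTCF letters (right) in each 50 bp bin around the peak midpoint, for unmarked peaks off LINE-1, peaks with H3K27ac only and peaks with H3K4me3. The Pax5 core reaches 7.00% in the unmarked peaks and 3.28% with H3K27ac only, and the CTCF letters reach 2.58% in the unmarked peaks off LINE-1, 0.417% with H3K27ac only and 0.584% with H3K4me3 in the same bin.

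Among letters of B cell enhancer factors, those of ETS/PU.1 and E-boxes were less frequent in unmarked peaks off LINE-1 than beside H3K27ac. The ETS/PU.1 letters GAGGAAGT were in 3.98% (3.22 to 4.92), against 7.5% (6.69 to 8.41) with H3K27ac only, and an E-box of the kind read by E2A, CAGCTG or CAGGTG, in 48.2% (46.0 to 50.3), against 59.0% (57.3 to 60.6). Intervals overlapped for the EBF letters (2.09% against 2.36%), the Ikaros letters (TTGGGAA, 4.91% against 4.42%) and the Runx letters (TGTGGTT, 11.6% against 13.1%). The Ikaros letters were in 6.91% of genome windows, more than in any class of Pax5 peak. On the LINE-1 element no window held the EBF or CTCF letters, which for 369 peaks allows a share of up to 1.03% by the Wilson interval. GC content had a median of 50% off the element, 39.3% on it, 50.7% with H3K27ac only, 64.7% with H3K4me3 and 41.7% in genome windows.

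**Figure D4:**
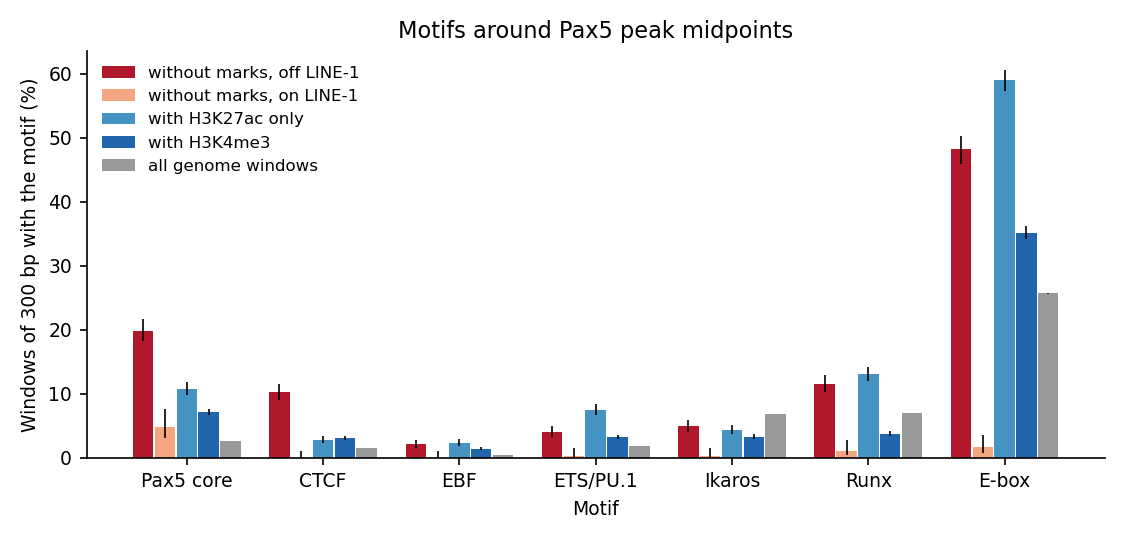
The share of 300 bp windows that hold each motif on either strand, with Wilson 95% intervals, for unmarked peaks off and on LINE-1, the 2 classes of marked Pax5 peak and all genome windows. Pax5 core (19.9%) and CTCF (10.3%) letters are most frequent in unmarked peaks off LINE-1, while E-boxes (59.0%) and ETS/PU.1 letters (7.5%) are most frequent with H3K27ac only.

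Unmarked Pax5 peaks were common in the kappa and heavy chain loci, but most of those were copies of the same LINE-1 segment. In the kappa locus (Igk, chromosome 6, 67505630 to 70676751) 22 of 41 Pax5 peaks were unmarked, 53.7% (38.7 to 67.9), beside 15.7% of the whole list. In the heavy chain locus (Igh, chromosome 12, 114544600 to 117238672) there were 9 of 21, 42.9% (24.5 to 63.5), and in the lambda locus (Igl, chromosome 16, 19085110 to 19260937) 3 of 6. Of these unmarked peaks, 15 of the 22 in Igk, 6 of the 9 in Igh and all 3 in Igl were on the LINE-1 element, as were both of those in the alpha/delta and both of those in the beta T cell receptor locus. The T cell receptor loci held few Pax5 peaks, 3 each for alpha/delta and beta, and 2 for gamma, neither of them unmarked. When peaks on the element were left out, 7 of 26 Igk peaks (26.9%, 13.7 to 46.1) and 3 of 14 Igh peaks (21.4%, 7.57 to 47.6) were unmarked, against 13.7% (13.1 to 14.2) of the list. The Igh interval spans the list's share and the Igk interval starts at it, so with this few peaks neither share could be told from the list's. The Igk locus held 110 copies of the LINE-1 window and the Igh locus 63, with 15 and 7 Pax5 peaks of any class on the element. The whole list had 390 such peaks for 30818 window copies. Peaks on the element were thus more frequent per copy in these loci than over the genome, and the reason was not tested.

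The kappa peaks with the highest scores were a LINE-1 peak 4125 bp from Igkv5-37 (69908845 to 69909516, score 407), a peak off the element 8960 bp from Igkv4-53 (69607785 to 69608352, score 306) and a LINE-1 peak 10553 bp from Igkv8-28 (70104080 to 70104807, score 291). The nearest H3K27ac peaks were 50460, 3491 and 17018 bp away. The 22 peaks lay from 316 to 2720 kb along the locus, which is 3.17 Mb long, and all scored between 88.7 and 407. Only 2 were within 1000 bp of an annotated kappa gene, 106 bp from Igkv8-30 (score 170) and 155 bp from Igkv1-35 (score 106), and both were off the element. The Pax5 core was in 2 of the 22 and the CTCF letters in none.

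In the heavy chain locus the highest score among the unmarked was 220, for a peak off the element 1759 bp from Ighm, the µ constant gene (114656817 to 114657821). It was followed by LINE-1 peaks 6940 bp from Ighv12-3 (115597466 to 115598128, score 204) and 46635 bp from Ighv3-3 (115481361 to 115481798, score 144). The 9 peaks included none with the Pax5 core. The annotation used lists 39 heavy chain and 103 kappa genes, so distances to V genes can be too long where a gene is missing. The 3 lambda peaks scored 178, 108 and 99.5, the highest of them 15706 bp from Iglv3 (19225182 to 19226013).

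**Figure D5:**
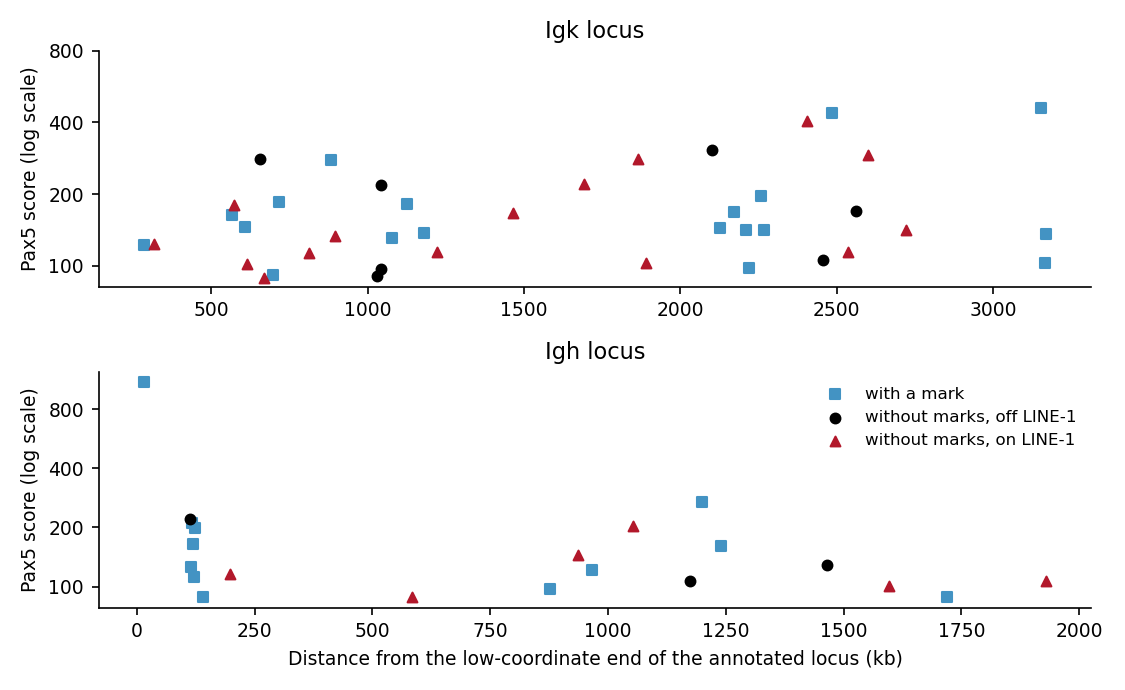
Pax5 peaks of the kappa (top) and heavy chain (bottom) loci by distance from the low-coordinate end of the locus, in kb, against their score on a log axis. Triangles are unmarked peaks on the LINE-1 element (15 and 6), circles other unmarked peaks (7 and 3) and squares peaks with a mark. In the kappa locus unmarked peaks of both kinds lie among marked ones up to 2720 kb, with none near the marked peaks at 3154 to 3170 kb. In the heavy chain locus the only unmarked peak in the first 141 kb, where several marked peaks lie, is off the element at 113 kb. The other unmarked peaks there lie from 197 to 1930 kb, with marked ones between them.

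Other gene families are set beside the 15.7% of the whole list, but the 2 are not alike. Family peaks were counted in gene bodies and 5 kb flanks, whereas the list includes intergenic peaks. Unmarked peaks were intergenic more often (51.5%) than peaks with H3K27ac only (45.4%) or with H3K4me3 (12.4%). The share over genic peaks alone is therefore below 15.7%, and the families were not compared with it. Of Pax5 peaks in the body or 5 kb flanks of zinc finger (Zfp) genes, 11 of 244 were unmarked, 4.51% (2.54 to 7.89), and of solute carrier (Slc) genes 28 of 246, 11.4% (7.99 to 16). None was unmarked among 40 at histone (Hist) genes, with an upper bound of 8.76%, or among 21 at MHC (H2) genes, with an upper bound of 15.5% that is near the list's share. Olfactory receptor (Olfr) genes, 1251 in the annotation, held 10 Pax5 peaks, of which 4 were unmarked. Serpin genes held 14, of which 5 were, Hox genes 3, of which 1 was, and Vmn2r genes 2, of which both were. These counts are small. The intervals for Olfr (16.8 to 68.7), Serpin (16.3 to 61.2) and Vmn2r (34.2 to 100) start above the list's share, the first 2 only just, and that for Hox (6.15 to 79.2) spans it. The intervals also span it for Cyp (3 of 15 unmarked, 7.05 to 45.2), Krt (1 of 4) and Igh constant genes (1 of 5). The same holds for Klr (0 of 3) and Pcdh (0 of 1). How many of the family peaks lay on the LINE-1 element was not counted. No Pax5 peak of any kind lay at the Vmn1r, Defb, Ugt or Mup families.

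Fewer unmarked than marked Pax5 peaks were clustered. By the criterion of 3 or more unmarked peaks with gaps of at most 50 kb, 135 of them (5.56%, 4.72 to 6.55) fell in 39 clusters, where the same count made within their own class put 33.3% of peaks with H3K27ac only and 39.3% of those with H3K4me3 in clusters. With gaps of up to 100 kb the shares were 13.5%, 45.9% and 63.0%. The classes differ in number, and these shares were not adjusted for that.

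The largest cluster was the 5S ribosomal RNA array on chromosome 8, with 10 unmarked peaks and no marked Pax5 peak over 81738 bp. The 5S RNA is a component of the large ribosomal subunit and is transcribed by RNA polymerase III. Every one of the 10 peaks overlapped an annotated 5S gene, with the midpoint between 115 bp before and 30 bp after the gene's start, and their scores ran from 98.2 to 322 with a median of 249. Of 52 genome copies of the central 400 bp of one of these peaks 10 carried a Pax5 peak, and none overlapped H3K27ac or H3K4me3. In these 10 peaks a median of 9.65% of positions had 3 or fewer exact occurrences in the genome, and its part in the result was not tested.

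Next came 2 clusters of 5. One lay on chromosome 4 (151486247 to 151547743) over Plekhg5, Tnfrsf25 (a death receptor of the tumour necrosis factor family), Espn and Hes2, with scores from 88.7 to 386. The other, on chromosome 6 (88956962 to 89022340), held no annotated gene and had scores from 120 to 798. The median share of positions with 3 or fewer occurrences was 98.2% in the first and 100% in the second. Clusters of 4 included a kappa V region with 3 LINE-1 peaks near Igkv2-116, Igkv1-115 and Igkv2-112. Another held 4 LINE-1 peaks around Iglv1 on chromosome 16 (19074311 to 19111959). It starts before the lambda locus as bounded above, so not all of its peaks are among those counted for Igl. A tight group lay on chromosome 4 (88431234 to 88443404) over predicted genes such as Gm13276 and Gm13277, where a median of 14.7% of positions had 3 or fewer occurrences.

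Besides the main LINE-1 family and 5S, smaller sequence families held between 5 and 26 unmarked peaks each. These included the family of 22 described above. In all, 510 unmarked peaks (21.0%) had a central 400 bp that aligned with that of another. The family of 26, with its seed on chromosome 11 (114773803 to 114774538), had a median score of 131 and a highest of 1066.

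Only 3 protein-coding gene models held 4 or more unmarked peaks in their body or 5 kb flanks. Pcca, which encodes a subunit of propionyl-CoA carboxylase (357 kb), had 4, all intronic, with scores from 146 to 1154, out of 6 Pax5 peaks. Gm20388 had 26 and Fgfr2, a fibroblast growth factor receptor gene, had 6, but these models span 4435 and 3009 kb in the annotation used, and the first includes the 5S array. Over all 22367 protein-coding genes, 10544 (47.1%) held a Pax5 peak of any class there and 1370 (6.13%) at least 1 unmarked peak.

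The lists of genes with known roles in lineage identity were too short to set apart from the 6.13% of all protein-coding genes that held an unmarked peak. Of 14 genes that Pax5 is known to activate, all 14 held a Pax5 peak and 2 an unmarked one. Of 13 genes it is known to repress, 5 held a Pax5 peak and 1 an unmarked one. Of the 14 T cell genes 9 held a Pax5 peak and 1 an unmarked one, and of the 11 myeloid genes found in the annotation 4 held a Pax5 peak and none an unmarked one. Every unmarked peak in these genes was intronic and off LINE-1, and none held the Pax5 core.

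In those genes and in Pax5 itself the scores ran from 93.2 to 190, beside a median of 137 for all unmarked peaks. Prdm1, which encodes the plasma cell regulator Blimp-1, held a peak with a score of 108 (chromosome 10, 44206984 to 44207338), 38536 bp from H3K27ac. Bach2, a repressor that restrains plasma cell differentiation, held one of score 123 (chromosome 4, 32445368 to 32446509), 13440 bp from H3K27ac. In Ebf1, an early B cell transcription factor gene with 7 Pax5 peaks in all, the unmarked peak scored 94.5 (chromosome 11, 44470407 to 44470737). In Bcl11b, a T cell commitment factor gene, it scored 93.2 (chromosome 12, 109207119 to 109207841) and was 200466 bp from H3K27ac. Pax5 itself held 2 of its 7 Pax5 peaks without marks, of scores 190 (chromosome 4, 44577373 to 44578016) and 176 (44677710 to 44678375), at 103355 and 2996 bp from H3K27ac, and the first held the CTCF letters.

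By chromosome, the share of Pax5 peaks that were unmarked ran from 13.2% (11.3 to 15.4) on chromosome 7 to 18.7% (15.9 to 21.9) on chromosome 12, and it was 18.6% (14.3 to 23.8) on the X. Most of these intervals include the 15.7% of the whole list. The distance from an unmarked peak to the nearest Pax5 peak of any class had a median of 27160 bp (24837 to 29718), against 10311 bp (9614 to 11021) for peaks with H3K27ac only and 20169 bp (19320 to 20825) for those with H3K4me3.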

How the data were processed

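ChIP-seq of Pax5, H3K27ac and H3K4me3 was analysed from the peak lists that the authors deposited, 1 library each. Per the study's methods, reads were aligned to mm9 with Bowtie, allowing reads with up to 3 best alignments, and duplicates were removed. The submitters' processing notes name Bowtie 0.12.9 and MACS 1.4.2. The methods name another Bowtie version, so their alignment limit may not be the one behind the lists. The deposited Pax5 and H3K27ac lists give 1 row per peak with a score whose unit is not stated. The deposited H3K4me3 list gives bins without a value, and touching bins were merged into 23237 regions. Read depth is unknown, and the 3 input samples were not used here.

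Overlaps, distances and motif matches were computed in Python 3.11.15 with numpy 2.4.6, against the mm9 genome and the GENCODE annotation of that build, and tested on simulated data. Sequence families were made with BLAST+ 2.17.0 (150 bp or more aligned at 70% identity or more between central 400 bp windows, families of 5 or more). LINE-1 peaks are those whose midpoint lies in an alignment to the 8 kb query. The named peaks and genes were the 10 strongest unmarked peaks (1 of them, with 1 marker gene, is not reported here), those in immunoglobulin loci, the largest clusters, genes with 4 or more, and genes of the lists. The rule, the gene lists and the motifs were chosen with earlier results of these data known. Where 7 clusters tied at 4 peaks, 3 of them were named after their values were seen.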

Additional observations from a re-analysis of the deposited data

How the results depend on the processing

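No paired analysis was possible because there was only 1 library per list. Alternatives that left out members on the LINE-1 element were chosen after seeing the data and the others were planned. With a mark required to cover the Pax5 midpoint, 3874 peaks were unmarked, or 25.1% of the list. Their medians were a width of 750 bp, a score of 150, and distances of 17536 bp to a coding start and 3834 bp to H3K27ac. Their Pax5 core share was 16%, and all 6 Pax5 peaks in Igl were unmarked. With no mark within 1000 bp the median distance to H3K27ac was 17081 bp. With no mark within 5000 bp it was 26114 bp, the width 706 bp and the distance to a start 24782 bp. In the higher-scoring 50% of Pax5 peaks 650 were unmarked, or 8.42% (width 766 bp, score 307, 16868 bp to a start, core 22.2%). Among peaks of that higher-scoring list, 1 of 4 in Igh, 7 of 10 in Igk and 0 of 3 in Igl were unmarked. With the higher-scoring 50% of H3K27ac peaks the width was 728 bp, the score 142 and the distance to H3K27ac 17970 bp. With H3K27ac alone absent the width was 745 bp, the score 143, the distance to a start 12490 bp and the core share 15.8%. Counting starts of all annotated genes gave 14141 bp. A promoter limit of 2500 bp gave 12.9% promoter, 4.04% exon and 33.1% intron. Gaps of up to 100 kb put 13.5% of the peaks in clusters. A 600 bp window gave a core share of 20.6%. The core shares in this section, apart from the one off LINE-1, are over all unmarked peaks of each setting. Under the main rule and a 300 bp window that share was 17.6% (16.1 to 19.2). Off the LINE-1 element the width was 726 bp, the distances 17406 bp to a start and 11032 bp to H3K27ac, and the core share 19.9%. Of the Pax5 peaks off the element, 3 of 14 in Igh, 7 of 26 in Igk and 0 of 3 in Igl were unmarked. The other 36 values stayed within their interval or, for counts, within 1.5 times. The unknown depth limits how far the absence of a mark can be read.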
